A study of Mus musculus with 7 samples.

Results

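The regions that surround 6 genes of Nodal signalling were examined for chromatin accessibility: the ligand genes Nodal and Gdf3, the coreceptor gene Tdgf1, the convertase genes Furin and Pcsk6, and Foxh1. The members are the ATAC-seq sites whose midpoint lay within 50 kb of a curated RefSeq transcription start site (TSS) of one of these genes, which gave 42 of the 75880 listed sites. Foxh1 had 12 sites, Gdf3 11, Nodal 8, Tdgf1 6, Pcsk6 3 and Furin 2, against a median of 4 over all genes with at least 1 site in such a window. In ATAC-seq the Tn5 transposase inserts adapters into open DNA, so that reads pile up at promoters and other regulatory elements. The assay was run on wild-type (WT) and Smad2/3 double knockout (DKO) epiblast-like cells (EpiLCs) at day 2, in 3 differentiations per genotype. EpiLCs model the primed epiblast and were made here from embryonic stem cells (ESCs) of strain 129/Sv//Ev, held in 2i and LIF and then cultured for 48 h in 12 ng/ml Fgf2 and 20 ng/ml activin A with serum replacement, in both genotypes alike.

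WT cells were the CCE line. DKO cells were the clone KT15.1F6, made from Smad2 tm1Rob/tm1Rob ESCs by CRISPR deletion of Smad3 exon 1. Each genotype was represented by 1 clone, so effects of the clone cannot be told apart from those of the genotype. Each transposition used 75000 cells, and 1 further library came from 100 ng of WT EpiLC genomic DNA treated with Tn5, which served the calling of sites and has no column of its own in the table analysed. For each site the table gives the authors' mean per genotype, called the concentration, which is the log2 of the mean normalized reads, so that 4 stands for 16 reads and 5 for 32. No value per library is listed, so depth and the spread between differentiations are unknown, and no difference below carries an error or a test. A site is called lower or higher only where the DKO mean differed from the WT mean by more than 1.5-fold (0.585 on the log2 scale).

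Nodal is a TGF-β family ligand that patterns the epiblast and acts through activin receptors and Smad2/3. It is made as a precursor that is cut by the proprotein convertases Furin and Pcsk6 (also called Pace4), it needs the EGF-CFC coreceptor Cripto, encoded by Tdgf1, and it can act together with the related ligand Gdf3. The forkhead factor FoxH1 brings Smad2/3 to DNA, and Nodal is known to activate its own transcription through an enhancer in its first intron that holds FoxH1 sites.

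The sequences below belong to sites on which the results turn: the Nodal and Tdgf1 sites with the largest differences, the site with a pair of POU octamers in the Gdf3 window, and the Pcsk6 sites that moved most in each direction. Each is the plus strand of GRCm38.p6 (mm10), 300 bases about the middle of the site, in lower case. Capitals mark exact matches, on either strand, to the strings searched: TGTGGATT and TGTGTATT (FoxH1), GTCTAGAC and GGCGCC (Smad), ATGCAAAT (POU octamer), GGATTA (Otx2), GGAATG (Tead) and CAGAC (the Smad box, added after values had been seen).
Nodal, 1.7 kb upstream, chr10:61416116-61416415: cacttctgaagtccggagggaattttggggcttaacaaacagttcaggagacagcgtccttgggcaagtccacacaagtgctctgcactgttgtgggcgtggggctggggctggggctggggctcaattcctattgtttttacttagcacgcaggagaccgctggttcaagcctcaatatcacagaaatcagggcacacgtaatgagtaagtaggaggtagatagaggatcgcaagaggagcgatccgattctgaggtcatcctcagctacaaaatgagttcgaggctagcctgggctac
Tdgf1, 19.1 kb upstream, chr9:110965146-110965445: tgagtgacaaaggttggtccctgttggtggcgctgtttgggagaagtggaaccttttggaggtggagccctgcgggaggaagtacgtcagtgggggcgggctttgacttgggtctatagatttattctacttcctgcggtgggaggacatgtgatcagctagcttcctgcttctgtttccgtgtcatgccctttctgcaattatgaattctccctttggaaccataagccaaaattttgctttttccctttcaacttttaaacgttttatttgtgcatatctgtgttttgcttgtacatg
Gdf3, 14.6 kb upstream, chr6:122624586-122624885: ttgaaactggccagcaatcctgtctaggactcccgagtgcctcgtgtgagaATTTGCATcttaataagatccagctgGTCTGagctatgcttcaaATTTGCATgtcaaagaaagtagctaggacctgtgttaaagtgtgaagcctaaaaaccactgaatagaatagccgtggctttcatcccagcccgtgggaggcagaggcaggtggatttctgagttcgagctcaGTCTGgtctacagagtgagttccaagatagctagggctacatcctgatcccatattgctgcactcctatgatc
Pcsk6, 13.8 kb upstream, chr7:65848201-65848500: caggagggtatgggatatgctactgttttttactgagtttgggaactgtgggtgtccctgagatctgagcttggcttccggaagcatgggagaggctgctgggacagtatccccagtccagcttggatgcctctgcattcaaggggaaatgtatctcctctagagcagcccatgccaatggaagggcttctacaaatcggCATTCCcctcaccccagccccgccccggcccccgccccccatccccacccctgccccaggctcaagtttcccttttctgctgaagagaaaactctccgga
Pcsk6, 11.6 kb downstream, chr7:65873586-65873885: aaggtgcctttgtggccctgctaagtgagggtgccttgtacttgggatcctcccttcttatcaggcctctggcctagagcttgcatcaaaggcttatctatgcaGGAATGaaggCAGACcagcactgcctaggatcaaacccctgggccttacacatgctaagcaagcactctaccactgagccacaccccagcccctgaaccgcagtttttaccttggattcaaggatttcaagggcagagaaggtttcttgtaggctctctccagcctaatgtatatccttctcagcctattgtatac

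A further pair of stretches is shown because the first intron of Nodal holds the FoxH1 string TGTGGATT at a pair of places, 1327 and 2121 bp downstream of the TSS. Both lie on the minus strand, so the capitals in these 58 bases of the plus strand show the reverse complement. Here capitals mark the FoxH1 string alone, and matches to the other strings are left in lower case.
Nodal intron 1, chr10:61419274-61419331: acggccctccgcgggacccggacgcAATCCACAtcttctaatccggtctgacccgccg
Nodal intron 1, chr10:61420068-61420125: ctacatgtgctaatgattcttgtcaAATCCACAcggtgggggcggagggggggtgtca

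Across the 42 sites, 5 were lower in DKO EpiLCs (11.9%) and 5 were higher (11.9%), and 32 were neither. Over all 75880 listed sites 16.0% were lower and 8.51% were higher by the same fold. The median difference of the members, DKO minus WT, was 0.07, with quartiles of -0.24 and 0.26 and extremes of -1.08 and 1.24, beside a median of -0.08 over all sites. The sites around these genes thus did not lie to one side as a group, and the share in each direction is not far from the background. Centred on the median of all sites, 2 of the 42 were lower and 7 were higher. The share of all sites past the fold after the same centring was not counted, so these 2 counts have no background here.

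By position, of the 11 sites whose nearest TSS was that of the member gene itself, 0 were lower and 3 were higher, at Nodal, Gdf3 and Pcsk6, with a median difference of 0.22. Of the 31 sites nearer to the TSS of another gene, 5 were lower and 2 were higher, the latter in the Tdgf1 and Furin windows. The shares over all listed sites were 16.0% lower and 8.51% higher, and no test sets these positions apart. Within 1 kb of any TSS, 2 of 17 members were lower and 1 was higher, and these 3 lay by the TSSs of the neighbours Kifc2, Vps28 and Man2a2. The background within 1 kb of a TSS was 4.17% lower and 3.69% higher. Beyond 1 kb, 3 of 25 members were lower and 4 were higher, against a background of 18.9% and 9.70%.

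**Figure D1:**
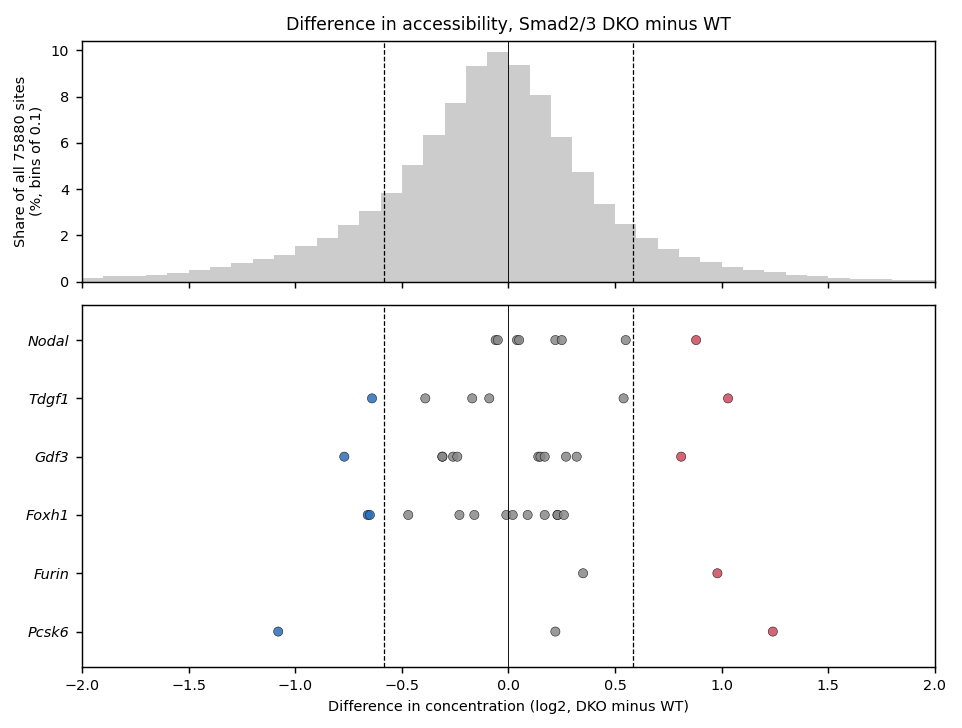
The upper panel is a histogram of the difference in concentration (log2, DKO minus WT) over all 75880 sites, in percent per bin of 0.1 with the far tails not drawn, and the lower panel gives the 42 member sites by gene, blue where lower, red where higher and grey where neither, with dashed lines at 1.5-fold. Most members lie between the lines, each gene has 1 or 2 sites past them, and the 3 blue points of Foxh1 and Tdgf1 nearest to the line fall inside it once the differences are centred on the median of all sites.

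The sites past 1.5-fold were of low to moderate signal, with WT concentrations from 2.87 to 5.58. Of the 17 members with a joint concentration under 5, 4 were lower and 3 were higher, where the background was 23.5% and 14.0%. Of the 25 members at 5 or more, 1 was lower and 2 were higher, where it was 8.46% and 3.09%. The latter 2 are the sites upstream of Nodal and in the first intron of Pcsk6. In WT alone both were under 5, at 4.98 and 4.49, and their DKO values of 5.86 and 5.73 brought them into this class. Their place in it is thus no sign of a strong WT signal.

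**Figure D2:**
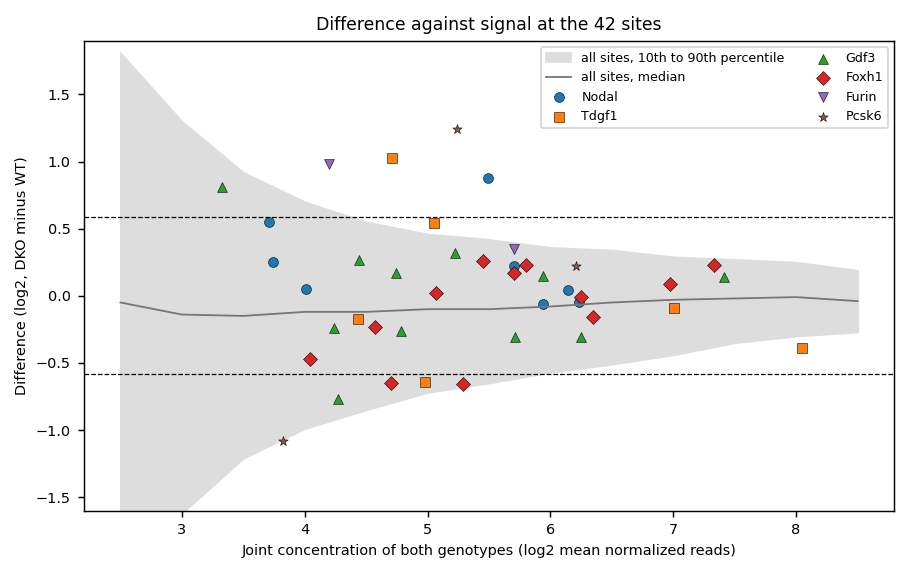
Each point is 1 of the 42 sites, placed by its joint concentration (log2 mean normalized reads over both genotypes) and its difference (log2, DKO minus WT), over a grey band from the 10th to the 90th percentile of all sites at that concentration and a line at their median. The Nodal site at 5.49 and the Pcsk6 site at 5.24 lie above the band, as do the Tdgf1 sites at 4.71 and 5.05 and the Furin site at 4.20, while the Tdgf1 site at 8.05 lies below it and the Pcsk6 site at 3.82 lies at its lower edge.

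At Nodal (chr10:61417972-61425338, plus strand) the promoter means were nearly equal, and a site just upstream was more open in DKO EpiLCs. The site over the TSS, in exon 1 (chr10:61417680-61418400), had a concentration of 5.97 in WT and 5.91 in DKO, a difference of -0.06 that becomes 0.02 when centred on all sites. The intergenic site 1.7 kb upstream (chr10:61415880-61416650) had 4.98 in WT and 5.86 in DKO, or 31.6 and 58.1 mean normalized reads, a 1.84-fold higher level. Of all listed sites, 4.04% had a larger difference in that direction. Per kb this upstream site had 41.0 normalized reads in WT and 75.4 in DKO, and 92.5% of all listed sites were denser in WT. The coding part of exon 2 held a site 5.5 kb downstream (chr10:61423380-61423650) with 5.58 in WT and 5.80 in DKO. Per kb of its length it was the densest site in the Nodal window, at 177 and 206 normalized reads per kb, against 87.1 and 83.5 at the TSS.

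The other Nodal sites are closer to other genes. The most accessible by concentration was 34.9 kb downstream, at the promoter of Eif4ebp2, with 6.26 in WT and 6.21 in DKO. The remaining 4 sites differed by 0.04 to 0.55, the last at a weak intergenic site 23.0 kb upstream (3.41 and 3.96). Summed over the 8 sites, normalized reads were 327 in WT and 366 in DKO, a log2 ratio of 0.16, and 80.2% of genes with a listed site had a lower ratio. Within 2 Mb of the gene, the other 110 sites had a median difference of 0.04, with 11 lower and 11 higher.

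No listed site covered the FoxH1 strings of the Nodal first intron shown above, which lay 899 and 1693 bp from the edge of the TSS site. The same held for every FoxH1 string in the windows. Both strings together occurred 58 times in the 602624 bp searched, 13 times in the Nodal window, and 0 of these fell in a listed site, while listed sites covered 3.74% of the windows. Among all listed sites, 1.85% held TGTGGATT and 2.13% held TGTGTATT within 500 bp about the midpoint. A string is only a match of letters, and accessibility below the level of the site calling is not seen in the table.

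Gdf3 (chr6:122605403-122610087, minus strand) encodes the second ligand, and lies between Dppa3, a germ line and naive pluripotency gene, and Apobec1, a cytidine deaminase gene. Its body and promoter were close to equal in both genotypes. The site in the coding part of exon 1 next to the TSS (chr6:122609760-122610110) had 4.30 in WT and 4.57 in DKO. A broader site in intron 1, 1.5 kb downstream (chr6:122607810-122609290), had the highest concentration in the window, with 7.34 and 7.48. Per kb it had 109 and 121 normalized reads, against 56.3 and 67.9 at the TSS. In both genotypes the intron, not the start of the gene, thus held the denser signal. Denser still per kb were the intergenic sites 14.6 kb upstream (180 in WT and 145 in DKO) and 23.4 kb upstream (142 and 157), both nearer to Dppa3.

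The 2 sites of the Gdf3 window past 1.5-fold pointed in opposite directions. An intergenic site of 150 bp, 7.5 kb upstream (chr6:122617560-122617710), rested on few reads, with 2.87 in WT and 3.68 in DKO, or 7.31 and 12.8 normalized reads. Intron 3 of Apobec1 held a site 14.3 kb downstream (chr6:122595660-122595890) with 4.61 in WT and 3.84 in DKO, 1.71-fold lower. The remaining sites differed by -0.31 to 0.32, among them the octamer-bearing site printed above (chr6:122624500-122624970), 1689 bp from the Dppa3 TSS, with 6.40 in WT and 6.09 in DKO. Summed reads over the 11 sites were 523 and 521, and the median difference of 0.14 turned to -0.05 when the site under a concentration of 4 in both genotypes was left out.

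Tdgf1 (chr9:110939608-110946158, minus strand) had the site with the highest concentration of the 42, a measure that grows with the width of a site. It spans 2230 bp and reaches from the TSS into the upstream region (chr9:110946140-110948370), and 0.521% of all listed sites are wider. Per kb it had 135 normalized reads in WT, fewer than the 323 of the site 48.8 kb upstream of Tdgf1, in intron 2 of Gm10030. The concentration of the promoter-linked site was 8.23 in WT and 7.84 in DKO, or 300.2 and 229 mean normalized reads, a 1.31-fold lower level that stayed under the 1.5-fold limit. Strong sites differ little in this table: of the 2194 sites with a joint concentration from 7.75 to below 8.25, the 10th percentile of the difference was -0.30, and the Tdgf1 site was at -0.39. A site 19.1 kb upstream in intron 4 of Lrrc2 (chr9:110965120-110965470) had 4.10 in WT and 5.13 in DKO, 2.04-fold higher, and a site 33.5 kb upstream in intron 7 of Lrrc2 had 4.75 and 5.29. The third site in Lrrc2, in intron 1 and 7.9 kb upstream, had 4.51 in WT and 4.34 in DKO. In the other direction, a site 49.4 kb downstream in intron 22 of Als2cl (chr9:110896570-110896990) had 5.27 in WT and 4.63 in DKO, a difference of -0.64 that is inside the limit once centred (-0.56). The sites of this window past 1.5-fold thus went in both directions before centring. Within Lrrc2 only the intron 4 site was past the limit, and the intron 1 site, at -0.17, was neither lower nor higher.

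In sum over the Tdgf1 window, reads were 538 in WT and 473 in DKO, a log2 ratio of -0.19, and 19.7% of genes had a lower ratio. That sum rested on the promoter-linked site, since without it the log2 ratio was 0.03. The other 153 sites within 2 Mb had a median difference of -0.16. The Als2cl site lies 49378 bp from the TSS, just inside the window, and the next site, 50298 bp away and outside it, had 3.63 in WT and 3.66 in DKO.

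The convertase genes had few sites. Furin (chr7:80389194-80405436, minus strand) has curated TSSs at 80402812 and 80405436, and the listed promoter site (chr7:80402170-80403050) covers the first. There the concentration was 5.51 in WT and 5.86 in DKO, a difference of 0.35. The only other site, 32.0 kb downstream in untranslated exon 2 of Man2a2 (chr7:80370690-80370990), had 3.63 in WT and 4.61 in DKO, 1.97-fold higher. Summed reads were 58.0 and 82.5, a log2 ratio of 0.51, which 1.98% of genes exceeded, and with only the promoter site it was 0.35. That rank takes in genes with any number of sites, and 71.1% of genes with a curated TSS have more sites than Furin.

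Pcsk6 (chr7:65862136-66050386, plus strand) had the largest difference in each direction among the 42 sites. Its promoter site over exon 1 (chr7:65861710-65862590) had 6.09 in WT and 6.31 in DKO, a difference of 0.22. In intron 1, 11.6 kb downstream (chr7:65873530-65873940), the concentration was 4.49 in WT and 5.73 in DKO, or 22.5 and 53.1 normalized reads, 2.36-fold higher. Of all listed sites, 1.72% had a larger difference in that direction. The intergenic site 13.8 kb upstream (chr7:65848230-65848470) went the other way, with 4.26 in WT and 3.18 in DKO, or 19.2 and 9.06 reads, 2.11-fold lower. Summed over these 3 sites, reads were 109.8 in WT and 141.5 in DKO, a log2 ratio of 0.37 that 4.45% of genes exceeded, while the other 105 sites within 2 Mb had a median difference of -0.14. The rank of Pcsk6 too takes in genes with any number of sites, and 56.9% of genes with a curated TSS have more.

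**Figure D3:**
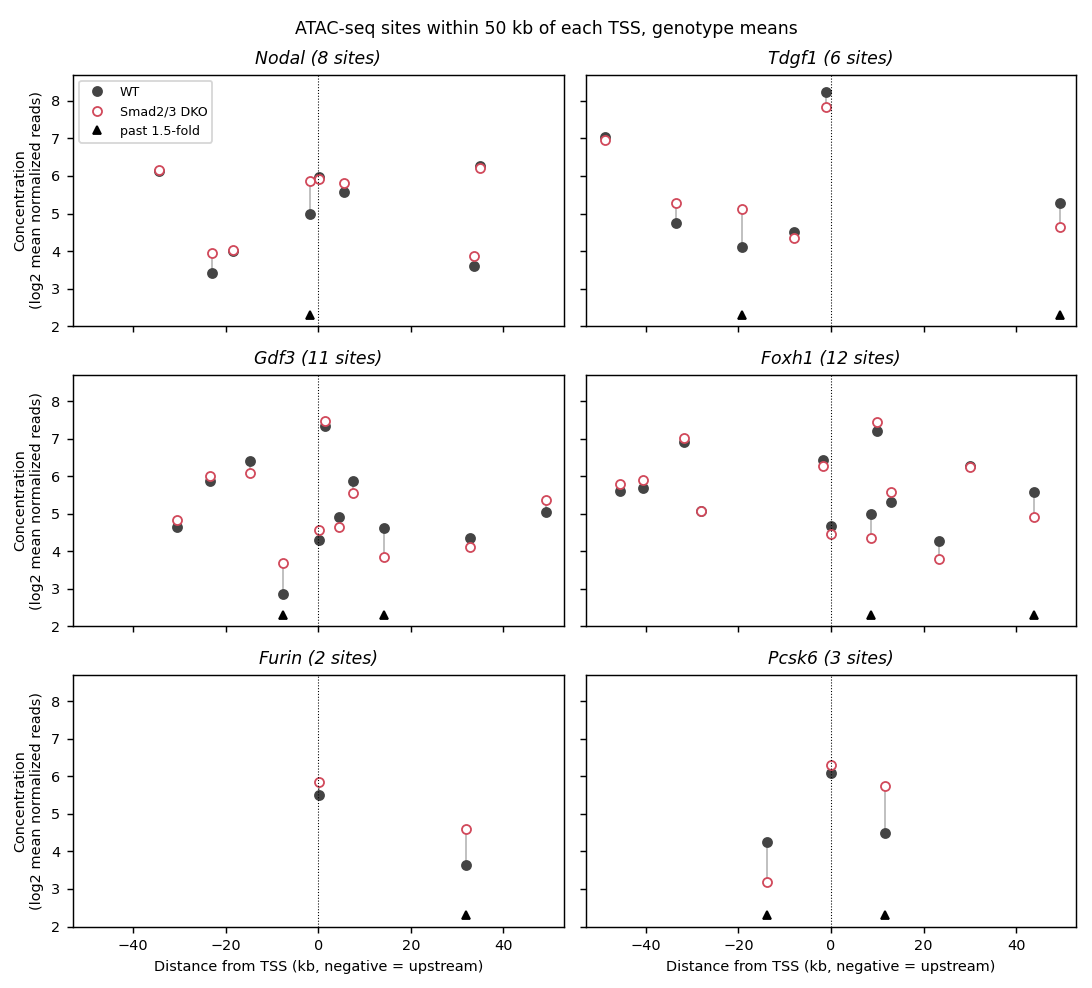
Each panel gives the concentration (log2 mean normalized reads) at the sites in the 50 kb window of 1 gene, with WT as filled and DKO as open circles, against the distance from the TSS in kb, and triangles mark sites past 1.5-fold. The circles nearly coincide at the Nodal TSS, and are farthest apart at the Pcsk6 sites 13.8 kb upstream and 11.6 kb downstream.

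Foxh1 (chr15:76668224-76669948, minus strand) lies among many genes, and 11 of its 12 sites are nearer to the TSS of a neighbour. Its own site over exon 1 (chr15:76669720-76670150) was modest, with 4.68 in WT and 4.45 in DKO. The site over the Ppp1r16a TSS, 1.7 kb upstream of Foxh1, had 6.43 and 6.27, and the site highest in concentration, 9.9 kb downstream at the Cyhr1 promoter, had 7.21 and 7.44. Both sites past 1.5-fold were lower in DKO EpiLCs. One lies in a coding exon of Kifc2 (chr15:76661120-76661530), with 4.99 in WT and 4.34 in DKO, and the other at the Vps28 TSS (chr15:76625710-76626350), with 5.58 and 4.92. Their differences of -0.65 and -0.66 are inside the limit once centred (-0.57 and -0.58). Summed reads over the 12 sites were 729.6 in WT and 738 in DKO.

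**Figure D4:**
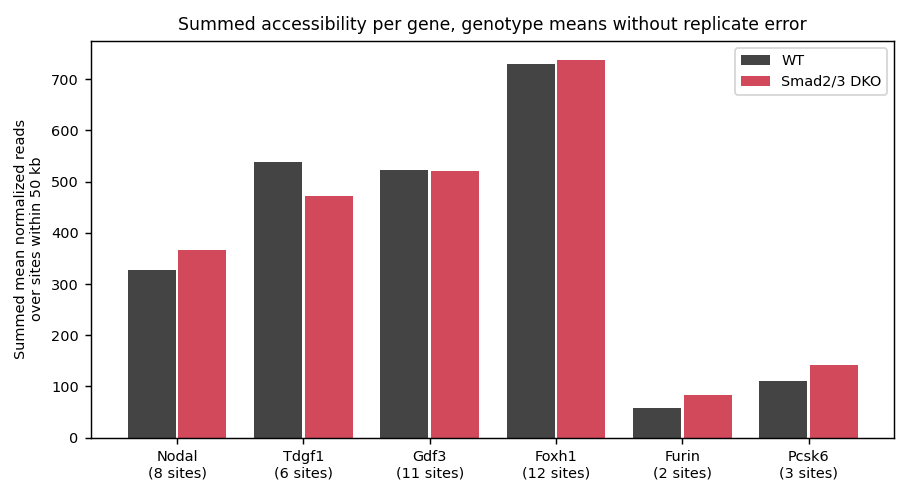
Bars give the mean normalized reads summed over the sites within 50 kb of each gene, WT in grey and DKO in red, from 0 and without error bars since no value per library is listed. The sums of Gdf3 (523 and 521) and Foxh1 (729.6 and 738) are nearly equal, that of Tdgf1 is lower in DKO (538 and 473) and those of Furin (58.0 and 82.5) and Pcsk6 (109.8 and 141.5) are higher, and heights of different genes reflect how many and how wide their sites are.

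At the TSS itself, none of the 6 genes was past 1.5-fold. In normalized reads per kb, the WT level at the site nearest to the TSS was highest at Tdgf1 (135), followed by Nodal (87.1), Pcsk6 (77.4), Foxh1 (59.6), Gdf3 (56.3) and Furin (51.8). In DKO the order was Tdgf1 (103), Pcsk6 (90.2), Nodal (83.5), Gdf3 (67.9), Furin (66.0) and Foxh1 (50.8). With no spread to set against these levels, it cannot be said which neighbours in either order differ.

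The other strings were found at the members about as often as elsewhere or in small numbers. Within 500 bp, GGCGCC occurred at 8 of 42 members (19.0%, against 12.6% of all sites), ATGCAAAT at 2 (4.76% against 4.38%), GGATTA at 9 (21.4% against 14.4%), GGAATG at 8 (19.0% against 26.7%), CAGAC at 28 (66.7% against 70.1%) and GTCTAGAC at 0 (against 0.395%). GGATTA can overlap the end of TGTGGATT where an A follows. Of the 10 sites past 1.5-fold, 4 held GGAATG, 3 of them lower in DKO and 1, in the first intron of Pcsk6, higher. None of the 10 held GGCGCC, ATGCAAAT or GGATTA.

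For the rest of the pathway, 26 further genes had 153 sites in such windows, of which 31 were lower (20.3%) and 7 were higher (4.58%), with a median difference of -0.17. The background for these and the following counts is the share over all listed sites, 16.0% lower and 8.51% higher. Among the 27 sites of the secreted inhibitors Lefty1, Lefty2, Cer1 and Dand5, 8 were lower and 0 were higher. Of the 33 sites of Eomes, Mixl1, Gsc, Lhx1 and Foxa2, transcription factor genes of the mesendoderm, 9 were lower and 1 was higher. Cfc1, which encodes the other EGF-CFC coreceptor, had 3 of 6 sites lower. The receptor genes had 2 of 16 sites lower and 0 higher, the Smad genes 4 of 13 lower and 1 higher (2 of the 4 are sites of Smad3, whose exon 1 is deleted in the DKO clone, and both are counted in the 31), the corepressor genes 3 of 36 in each direction, and the ligand genes Gdf1, Inhba and Inhbb 2 of 22 in each direction. No test sets these groups apart from each other or from the 42 sites.

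The inactivated genes were checked on the same scale. The site at the Smad3 TSS, by the deleted exon 1, had 5.42 in WT and -0.10 in DKO, the lowest value listed for that genotype. The Smad2 promoter had 8.35 and 8.28, which is no check of the tm1Rob allele. Sites at the TSSs of the epiblast genes Pou5f1, Otx2, Fgf5 and Dnmt3b had WT concentrations from 5.66 to 7.71, but those of Gata4, Sox17, Cdx2 and Elf5, markers of endoderm and trophoblast, were listed as well (4.55 to 7.61), so promoter sites do not tell these cell types apart here. Of the TSS sites of these 8 genes, that of Elf5 alone was past 1.5-fold (4.55 in WT and 3.86 in DKO). Sites away from these TSSs are not covered by this check, and the paper reports decreased accessibility at Fgf5 in DKO EpiLCs. The part of other cell types in the results was not tested.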

How the data were processed

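ATAC-seq was analysed for 3 WT and 3 DKO differentiations, with 1 Tn5 control. The authors mapped read pairs with bowtie2 (mm10), dropped blacklisted and multi-mapping reads, took out PCR duplicates (Samtools), and used DANPOS2 to call sites and DiffBind to compare them. DiffBind's version and normalization, like any shift of read ends, are not given in the sources used here. The deposited table holds log2 concentrations, the authors' mean over the libraries of a genotype, with all positions in steps of 10 bp, and whether starts count from 0 or 1 is not stated. Its 3 columns of the authors' own comparison, a log2 fold, a p-value and an FDR, were not used. No column is per library, so the count test designed for counts per library could not be used. Differences of the means, called past 1.5-fold, were used, as had been planned for a table of means.

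Distances run from site midpoints to 31601 curated RefSeq TSSs of GRCm38.p6, the same build (0 sites past a chromosome end). Sums add the reads behind the concentrations. Motifs were exact strings in 500 bp. Named for each gene were the site nearest the TSS, the one highest in WT, the one with the largest difference among those at a concentration of at least 4 in either genotype, and every site past 1.5-fold. The members and lists were chosen with earlier results of these data known. The code was tested on simulated data and run with Python 3.11.15, numpy 2.4.6, pandas 2.3.3 and matplotlib 3.10.9. The alternatives were other folds, windows, TSS sets, filters, centring, 1 added read and other motif windows. Added after values had been seen were CAGAC and the search of whole windows for FoxH1 strings.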

Additional observations from a re-analysis of the deposited data

How the results depend on the processing

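No paired analysis was possible because the table holds no value per library, and leaving out single differentiations was not run for the same reason. Of 151 alternatives, 117 moved a count by at most 1.5 times, a site difference by at most 0.30, a gene value by at most 0.14 or a motif share within its binomial interval. The other 34 moved further. That 0 reversed a value past 1.5-fold says little. The sites past 1.5-fold were recomputed only with centring and with 1 added read, and neither can turn the sign of such differences. The counts of 5 lower and 5 higher sites became 1 and 2 at a 2-fold limit, 8 higher where a change of 25% sufficed, 2 lower after centring, 1 and 2 of 16 sites in 10 kb windows, 10 and 9 of 74 sites in 100 kb windows, and 0 and 3 of 11 sites, with a median difference of 0.22 in place of 0.07, where the gene's own TSS had to be the nearest. Those windows hold fewer or more sites by construction. The median of Gdf3 also changed sign in the 100 kb window (-0.02). The log2 ratio of the Furin sums fell to 0.20 in that window, and that of Pcsk6 ran from 0.22 in the 10 kb window to 0.58 without its highest WT site. The cause was not tested. Weak sites rest on few reads, and their error is unknown.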

Other observations

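The share of bases soft-masked as repeats had a median of 12.3% in the members and 12.2% over all listed sites, so the typical member was no poorer in repeats. Members masked over most of their bases were few. In 500 bp about the midpoint, 2 of the 42 sites (4.76%) were soft-masked as repeats in the reference over at least 50% of their bases, against 13.8% of all listed sites, and both lie upstream of Gdf3, 7.5 kb (69.6% masked) and 30.5 kb (68.8% masked) from its TSS. The first of these is the site past 1.5-fold with the lowest concentration. Both lie beyond 1 kb of any TSS, where 2 of 25 members (8.0%) were masked to that extent, against 17.0% of all such sites. Within 1 kb it was 0 of 17 members, against 0.573% of all such sites. A site 4.5 kb downstream of the Gdf3 TSS, at 49.8% masked, fell just short of the 50% limit.

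Outside the 50 kb windows, the next site from Foxh1, 52247 bp upstream, had a concentration of 0.87 in WT and 2.97 in DKO, both from very few reads. The next site from Furin, 59597 bp away, had 3.55 in WT and 4.22 in DKO, and that from Pcsk6, 81871 bp away, had 4.35 and 4.86. For Gdf3, at 59538 bp, it was 5.79 and 6.01. The next site from Nodal, at 57778 bp, went the other way, with 6.71 in WT and 6.36 in DKO, and that of Tdgf1 is given above.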
